A study of Mus musculus with 24 samples.

Results

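The genes described here are 7 members of 2 families of hepatic lipid enzymes, the fatty acid hydroxylases Cyp4a10 and Cyp4a14 and the acyl-CoA thioesterases Acot1, Acot2, Acot3, Acot4 and Acot12. Members were found as probe sets that the platform table lists under one of these symbols alone. By this rule 6 of the 7 members had a value of their own, out of 18194 genes with such a probe set, and they were measured by 10 probe sets. All 6 passed the filter on low values, which left 13114 genes to be tested. Cyp4a10 had no probe set of its own. Its only listing was probe set 1424853_s_at, which is listed for both Cyp4a31 and Cyp4a10, and that probe set is described under its ID. Probe set 1422997_s_at is likewise listed for both Acot2 and Acot1.

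The livers came from 24 male BALB/c mice, which were six-week-old animals on arrival and then spent a week on a standard diet, with 1 Affymetrix 3' expression array per mouse. The 4 groups of 6 were mice without any treatment on the purified AIN93G diet (control), mice given 185 mg/kg streptozotocin intraperitoneally and fed AIN93G (STZ), and mice given the same injection and fed AIN93G with 0.1% or 0.5% quercetin, a plant flavonol. Streptozotocin is an alkylating glucose analogue that damages the insulin-producing beta cells, and only injected mice within a window of non-fasting blood glucose entered the diets, which lasted 14 days. Control mice received no injection of the vehicle, so the drug and the injection cannot be told apart in any comparison with them.

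Cyp4a enzymes add a hydroxyl group to the terminal carbon of fatty acids in the endoplasmic reticulum, which opens a route to dicarboxylic acids that peroxisomes shorten. Acyl-CoA thioesterases split activated fatty acids into free fatty acid and coenzyme A. Acot1 works in the cytosol, Acot2 in mitochondria, and Acot3 and Acot4 in peroxisomes, while Acot12 is a cytosolic enzyme that hydrolyses acetyl-CoA. Cyp4a10, Cyp4a14 and Acot1 to Acot4 are known as genes that fasting and the nuclear receptor PPARα raise in rodent liver.

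The members other than Acot12, which lies on chromosome 13, form 2 gene clusters. On mouse chromosome 12 the gene table orders Acot2, Acot1, Acot4, Acot3, Acot5 and Acot6 as neighbouring protein-coding genes, and on chromosome 4 it orders Cyp4a14, Cyp4a10, Cyp4a31 and Cyp4a32. Neighbours within each cluster are near copies of each other, so part of a probe set's signal may come from a neighbour, and this was not tested. RefSeq sequence upstream of the start (GRCm38.p6) was given for 5 of the 7 members, and the Acot cluster is shown because its members are compared throughout. The 250 bases before the start of Acot2 (chr12:83987611-83987860), Acot1 (chr12:84009252-84009501) and Acot3 (chr12:84051894-84052143), all on the plus strand, are printed 5' to 3' with the letters of a CCAAT box, on either strand, in capitals.
Acot2: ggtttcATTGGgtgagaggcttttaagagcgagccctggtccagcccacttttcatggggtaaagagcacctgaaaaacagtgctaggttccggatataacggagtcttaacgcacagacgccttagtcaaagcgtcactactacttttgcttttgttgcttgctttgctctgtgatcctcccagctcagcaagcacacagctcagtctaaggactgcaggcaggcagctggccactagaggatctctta
Acot1: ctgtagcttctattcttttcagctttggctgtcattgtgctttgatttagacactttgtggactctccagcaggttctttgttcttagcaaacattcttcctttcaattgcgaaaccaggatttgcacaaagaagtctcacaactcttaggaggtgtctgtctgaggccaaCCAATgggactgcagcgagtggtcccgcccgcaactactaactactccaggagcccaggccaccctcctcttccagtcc
Acot3: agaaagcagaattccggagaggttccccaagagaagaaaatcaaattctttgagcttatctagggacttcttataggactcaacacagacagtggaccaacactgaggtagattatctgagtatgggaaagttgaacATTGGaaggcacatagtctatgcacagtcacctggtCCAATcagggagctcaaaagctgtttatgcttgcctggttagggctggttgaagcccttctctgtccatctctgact
Acot4, 30 bases: ggctcagccccgaagcaTGACCTTTGGCCG

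The Acot4 line gives the 30 bases that end at the base before its start (chr12:84038349-84038378, plus strand), and there the capitals mark a match on the minus strand to a direct repeat of the nuclear receptor half-site with 1 base between the copies (DR1), searched on both strands in the relaxed form NGGNCA, any 1 base, AGGNCA. That form occurs in 0.694% of 32851 upstream windows of the same length. The match spans bases -13 to -1 and contains the half-site AGGTCA, which 14.0% of windows hold. None of the Acot1, Acot2 and Acot3 windows held either of these letter strings, and Acot12 held the half-site alone at bases -110 to -105. The strict repeat AGGTCA, any 1 base, AGGTCA (0.0335% of windows) was in none of the members' windows, and the E-box CACGTG (6.02%) was in that of Acot4 alone, at bases -66 to -61. CCAAT, found in 33.8% of windows, lay at bases -244 to -240 of Acot2 on the minus strand, -79 to -75 of Acot1, -85 to -81 of Acot4, and -77 to -73 of Acot3, which had another on the minus strand at -113 to -109. These matches describe letters and not binding.

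Some properties of the arrays touch the results. Mean deposited intensity per array ranged from 61.0 to 102, and Pearson's r between arrays was 0.969 to 0.987. In the 0.5% quercetin group, replicates 5 and 6 stood apart. They lay at -17.2 and -19.2 on the first principal component, among the controls at -18.3 to -13.5, while the other 4 mice of that group lay at 3.17 to 9.50. The Gapdh control probe sets at the 3' and the 5' end of the transcript give a measure of RNA integrity and labelling, taken as 3' minus 5' on the log2 scale. Its mean was -0.04 ± 0.17 (SD, n = 6) on control arrays and -0.34 ± 0.10 on STZ arrays. On arrays of the quercetin groups it was -0.32 ± 0.15 for the 0.1% diet and -0.21 ± 0.17 for the 0.5% diet. The measure differed between STZ and control arrays with an exact permutation p of 0.00433 (adjusted p = 0.0519 over 12 such tests, two-sided). Hepatocyte markers stood at a mean log2 level of 11.8 to 12.1 on every array, which fits the labelled tissue.

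STZ mice were first compared with controls, which shows the hepatic change that went with streptozotocin treatment. Cyp4a14 and Acot2 rose, and the means of Acot1, Acot3, Acot4 and Acot12 lay above the control means without passing the threshold. Thus 2 of 6 members tested were called higher, against a background of 2.03% of all 13114 genes higher and 3.72% called in either direction. The median difference of the members was 0.54 on the log2 scale, and that of all genes was -0.02. Levels below are log2(normalized intensity + 16). Differences are on the same scale and folds are ratios of intensity + 16, which understates the change of dim genes. Calls rest on limma's moderated test with Benjamini-Hochberg adjustment over all genes tested and a threshold of 0.05.

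Cyp4a14, which hydroxylates medium- and long-chain fatty acids (probe set 1423257_at), ranged from 4.09 through a median of 4.41 to 4.82 in controls, and from 5.36 through 6.71 to 9.30 in STZ mice. All 6 STZ mice were above all 6 controls, a pattern that 1.96% of genes shared. On this log2 scale the STZ mice were spread far more widely than the controls. Deposited intensities were 0.901 to 13.4 in controls and 27.05 to 750.7 in STZ mice. The pseudocount narrows the spread of values as dim as those of the controls, so part of this contrast in spread comes from the scale. The difference between STZ and control means was 2.27 (SE 0.62, 95% interval 1.00 to 3.54, limma adjusted p = 0.0358). Deposited control intensities of Cyp4a14 were 0.901 to 13.4 with a median of 5.14, near the array medians of 4.96 to 7.98, so the size of the difference depends on the pseudocount and is not given as a fold. It was 3.78 with a pseudocount of 1. The call was lost when any 1 of the 6 control arrays or STZ replicate 2, 3, 5 or 6 was left out (adjusted p between 0.0244 and 0.113 over 24 such fits, difference 1.75 to 2.54). It was also lost with no filter on low values (adjusted p = 0.0556) and with a pseudocount of 64 (difference 1.24, adjusted p = 0.135).

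Probe set 1424853_s_at, listed for Cyp4a31 and Cyp4a10, ranged from 6.12 through 6.91 to 7.62 in controls and from 8.80 through 10.69 to 11.41 in STZ mice. The groups did not overlap, a pattern that 1.96% of genes showed, and its share among all probe sets is not given. In a fit of all 27061 probe sets past the filter, where 1.57% were called higher, it rose by 3.32 (SE 0.62, adjusted p = 0.00317), or 9.98-fold with a 95% interval of 4.16 to 23.9. This call was kept in all 24 fits that left out 1 array (adjusted p 0.000502 to 0.0116). How much of the signal belongs to Cyp4a10 cannot be told from it. Cyp4a31 also had a probe set of its own, which was not called in STZ or 0.1% quercetin mice against control. How far that probe set and the shared one read the same transcripts was not tested.

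Among the thioesterases, Acot2, the mitochondrial enzyme (1439478_at), ranged from 5.30 through 5.57 to 5.76 in controls and from 5.70 through 6.15 to 6.39 in STZ mice. STZ replicate 1 alone lay within the control range. The rise was 0.57 (SE 0.13, adjusted p = 0.0128), or 1.48-fold, and it was called in all 24 fits without 1 array (adjusted p 0.00475 to 0.0427), but not on the values as deposited without scaling (0.68, adjusted p = 0.0625). A second Acot2 probe set, 1422996_at, was dim and differed by 0.17 (SE 0.10, adjusted p = 0.484), so the Acot2 probe sets disagreed on the call.

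Acot3, a peroxisomal enzyme (1422925_s_at), ranged from 4.72 through 4.92 to 5.26 in controls and from 5.22 through 5.76 to 6.92 in STZ mice, with 4 of 6 STZ mice above all controls. Its difference of 0.96 (SE 0.31, adjusted p = 0.0839) did not pass. Acot4, also peroxisomal (1422076_at), ranged from 4.58 through 5.10 to 5.33 in controls and from 5.34 through 5.57 to 5.77 in STZ mice. Here the groups did not overlap, as in 1.96% of genes, yet the difference of 0.51 (SE 0.16, adjusted p = 0.0783) missed the threshold. The other Acot4 probe set, 1422077_at, differed by 0.13 (adjusted p = 0.659).

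Acot1, the cytosolic enzyme (1449065_at), ranged from 6.05 through 6.14 to 6.55 in controls and from 6.23 through 6.53 to 7.11 in STZ mice. The ranges overlapped, with 3 of 6 STZ mice above all controls, and the difference was 0.40 (SE 0.21, adjusted p = 0.342). Acot12 (1449457_at) ranged from 7.93 through 8.09 to 8.21 in controls and from 8.10 through 8.30 to 8.46 in STZ mice, a difference of 0.20 (SE 0.10, adjusted p = 0.327). Its probe set 1419395_at differed by 0.22 (adjusted p = 0.475), and its dimmest probe set, 1433064_at, was under the filter with a mean log2 level of 4.17. Probe set 1422997_s_at, listed for Acot2 and Acot1, differed by 0.24 (adjusted p = 0.572).

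**Figure D1:**
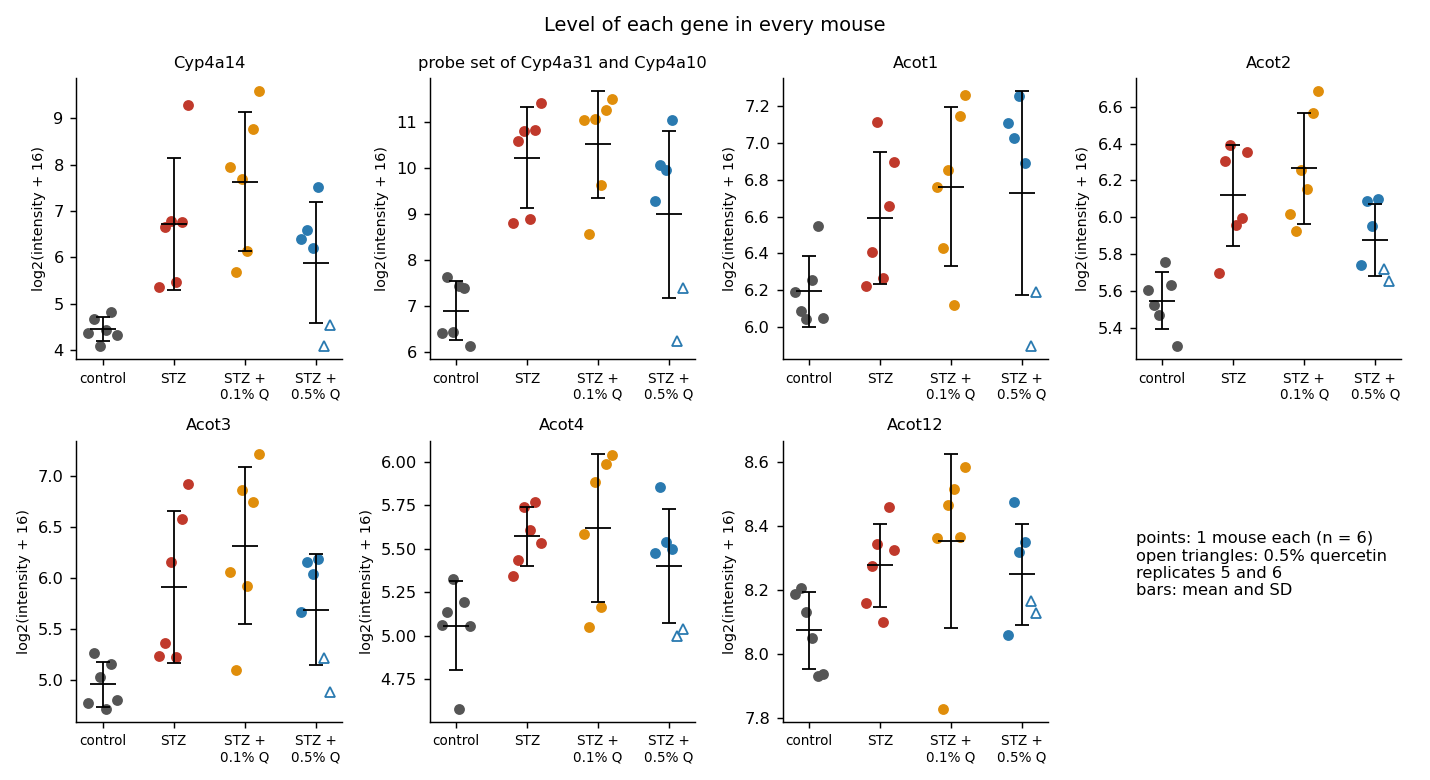
The vertical axes give log2(normalized intensity + 16) for each of 6 mice per group, with bars for the mean and SD, in 1 panel for each of 6 genes and for the probe set listed for Cyp4a31 and Cyp4a10 (Q, quercetin). All 6 STZ mice lie above all 6 controls for Cyp4a14, the shared probe set and Acot4, a pattern that 1.96% of genes showed. Open triangles mark 0.5% quercetin replicates 5 and 6, which lie at or near the control range.

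The Gapdh measure of array quality moved with these levels. After each group's mean was subtracted, the Gapdh 3' minus 5' difference correlated with all 6 members and the shared probe set over the 24 mice. Pearson's r lay between -0.68 for the shared probe set and -0.47 for Acot2, and 7 relations computed after the data were seen gave adjusted permutation p-values of 0.0031 to 0.032. For Cyp4a14, r was -0.61 (permutation p = 0.0013, adjusted p = 0.0031), Spearman's rho was -0.61 (adjusted p = 0.0098), and r was -0.60 without the 2 arrays farthest from the median. Within the controls r was -0.53 for Cyp4a14 but lay between -0.13 and 0.25 for the other members and the shared probe set. Within the STZ mice r lay between -0.83 for Acot1 and -0.61 for Acot12, apart from Acot4 at -0.13. At 0.1% quercetin r lay between -0.84 for the shared probe set and -0.41 for Acot2. At 0.5% quercetin r lay between -0.98 and -0.77 (n = 6 in each group). Without 0.5% quercetin replicates 5 and 6, the pooled r lay between -0.57 for the shared probe set and -0.34 for Acot4. With the Gapdh difference as a term in the limma fit, 0 of 6 members were called in STZ against control. Cyp4a14 then differed by 0.77 (adjusted p = 0.805), Acot2 by 0.35 (adjusted p = 0.525) and the shared probe set by 1.64 (adjusted p = 0.503). That fit called 6 of all genes in this comparison, where 488 were called without the term. Its part in the members' differences was not tested further.

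Markers of other cells also moved in this comparison. Of 8 Kupffer cell markers tested, C1qb, Cd5l and C1qa rose, by 0.62, 0.58 and 0.48, and the mean log2 level of the marker list was 6.83 to 7.08 in controls and 7.15 to 7.43 in STZ mice. Lyve1 rose by 1.02 (1 of 6 endothelial markers), while the median of that list was -0.09 and Clec4g, Stab2 and Cdh5 stood at -0.19, -0.20 and -0.22 without a call. Dcn, a stellate and matrix marker, rose by 0.41 (1 of 8), while Ighm, a B cell marker, fell by 1.63 (1 of 5). Cela1, listed as an exocrine pancreas marker, fell by 1.38 (1 of 2), while Cela3b of the same list differed by 0.003. None of the 7 hepatocyte, 3 bile duct or 4 kidney tubule markers tested was called, and all 4 adipocyte markers on the array lay under the filter. No marker on the arrays read exactly 0. In bulk tissue, more cells of a type and more RNA per cell cannot be told apart, and the part of these shifts in the members' differences was not tested.

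The 0.1% quercetin group was then set against the same 6 controls. Cyp4a14, Acot2, Acot3 and Acot4 rose, so that 4 of 6 members were called higher against 2.94% of all genes higher and 5.57% called in either direction. All 6 member means lay above the controls, with a median of 0.64 against -0.01 for all genes. Because the control arrays are shared, this comparison is not independent of STZ against control.

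Cyp4a14 ranged from 5.68 through 7.82 to 9.59 at 0.1% quercetin. All 6 mice lay above the controls, a pattern found in 2.11% of genes, and the difference was 3.18 (SE 0.62, 95% interval 1.92 to 4.45, limma adjusted p = 0.00244). With a pseudocount of 1 it was 4.83, since the control level is dim. The shared probe set 1424853_s_at ranged from 8.57 through 11.04 to 11.50 and rose by 3.60 (SE 0.62, adjusted p = 0.00117), where 2.2% of probe sets were called higher. Both Cyp4a readouts were thus above all controls in every mouse of the group.

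Acot2 ranged from 5.92 through 6.20 to 6.68, above all controls in 6 of 6 mice, as in 2.11% of genes. It rose by 0.72 (SE 0.13, adjusted p = 0.00154), or 1.64-fold. Acot3 ranged from 5.10 through 6.40 to 7.21, with replicate 2 inside the control range, and rose by 1.36 (SE 0.31, adjusted p = 0.00841). Over 15 other settings this difference of Acot3 lay between 0.67 and 1.97. Calls of Cyp4a14, Acot2 and Acot3 held in all 24 fits without 1 array. Deposited control intensities had a median of 13.45 for Acot3 and 17.93 for Acot4, so both genes are likewise given without a fold. Acot4 ranged from 5.05 through 5.73 to 6.04, with 4 of 6 mice above the controls. The rise of Acot4 was 0.56 (SE 0.16, adjusted p = 0.0396), and 0.90 with a pseudocount of 1. Its call was lost in 8 of those 24 fits, namely without control replicate 1, 2, 4 or 6 or 0.1% quercetin replicate 1, 3, 5 or 6 (adjusted p 0.00878 to 0.114). It was also lost on the values as deposited (adjusted p = 0.135), with a pseudocount of 1 (0.071), with no filter (0.0558), with only the 2 groups compared (0.0671) and in the fits with the Gapdh term or a replicate block. The other probe sets of these genes were not called, with 1422996_at of Acot2 at 0.13 (adjusted p = 0.589), 1422077_at of Acot4 at 0.28 (adjusted p = 0.194) and 1422997_s_at, listed for Acot2 and Acot1, at 0.53 (adjusted p = 0.0846).

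Acot1 ranged from 6.12 through 6.81 to 7.26 and differed by 0.57 (SE 0.21, adjusted p = 0.116), and Acot12 ranged from 7.83 through 8.42 to 8.59 and differed by 0.28 (SE 0.10, adjusted p = 0.12). Neither passed. For Acot12, replicate 2 lay below all controls and the other 5 mice above them. With the Gapdh difference as a term, 0 of 6 members were called here too, with Cyp4a14 at 1.80 (adjusted p = 0.231), Acot2 at 0.51 (adjusted p = 0.14), Acot3 at 0.67 (adjusted p = 0.399) and Acot4 at 0.28 (adjusted p = 0.574), and 4 of all genes were called. The Kupffer markers C1qb, Cd5l and C1qa rose in this group as well, and their list had a mean log2 level of 7.16 to 7.52. Lyve1 rose by 1.02 (1 of 6 endothelial markers), and the median of that list was 0.03. Without a call, Stab2, Cdh5 and Clec4g stood at -0.21, -0.17 and -0.09, and Pecam1 and Kdr at 0.22 and 0.15. Of 8 stellate and matrix markers, Dcn rose by 0.36 and Reln fell by 0.39. Ighm fell by 1.76 (1 of 5) and Cela1 fell by 1.36 (1 of 2), while the other pancreas marker tested, Cela3b, differed by -0.02. The part of these shifts in the members' differences was not tested.

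**Figure D2:**
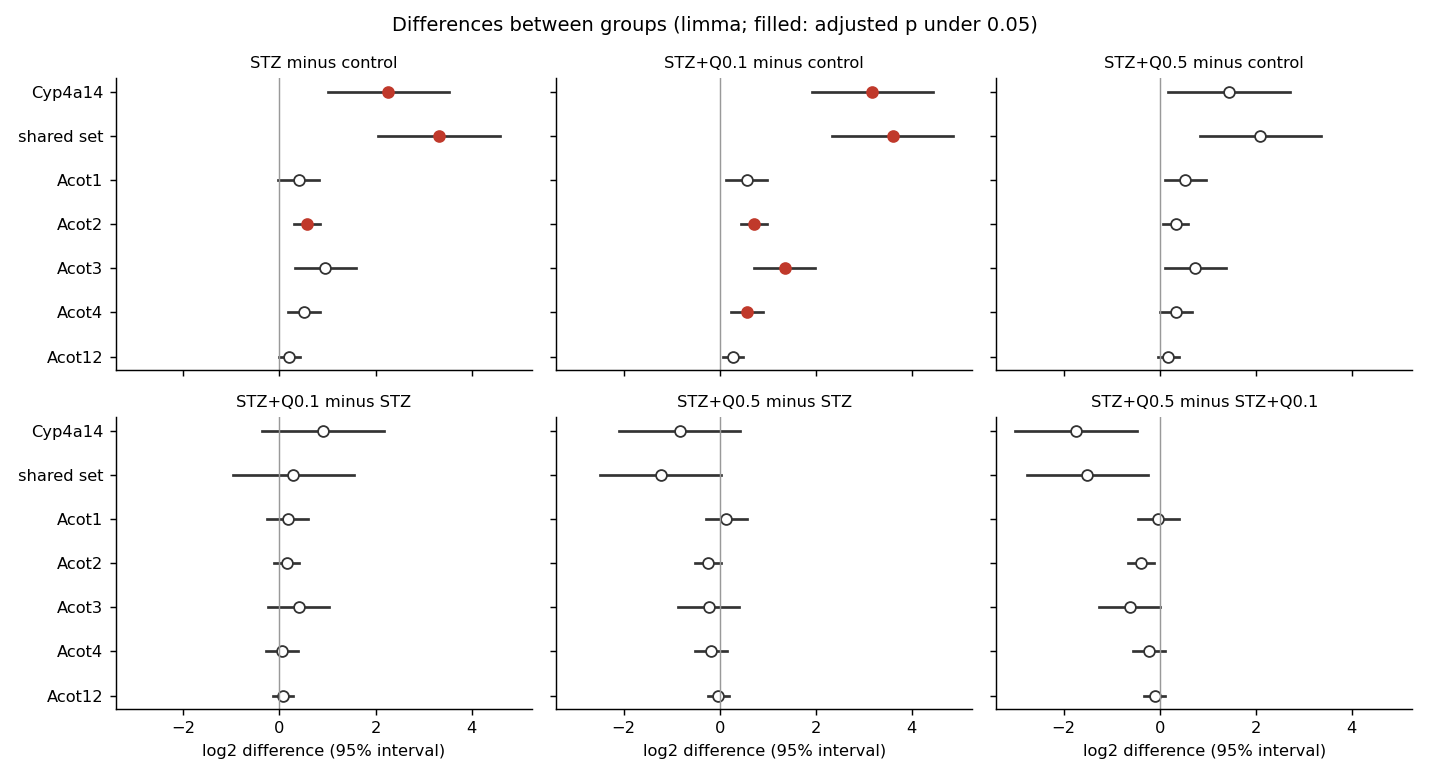
Each panel is 1 of 6 comparisons, with the log2 difference on the horizontal axis, a line for its 95% interval from limma, and a filled point where the adjusted p was under 0.05 ("shared set" is the probe set listed for Cyp4a31 and Cyp4a10, from the fit of all probe sets). Filled points occur only against control, for Cyp4a14, the shared set and Acot2 in STZ mice and for these with Acot3 and Acot4 at 0.1% quercetin.

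At 0.5% quercetin, 0 of 6 members were called against the controls, where 0.0534% of genes were called higher and 0.13% in either direction. At an unadjusted p under 0.05 there were 5 of 6 members and 1613 (12.3%) of all genes. All 6 means lay above the controls, and the median difference was 0.44 against -0.01 for all genes. Cyp4a14 ranged from 4.08 through 6.30 to 7.51, which covered the whole control range, and differed by 1.43 (SE 0.62, adjusted p = 0.334), with a 95% interval of 0.17 to 2.70.

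Acot1 had its highest group median at this dose, with a range from 5.90 through 6.96 to 7.25 and a difference of 0.53 (SE 0.21, adjusted p = 0.279). Acot3 ranged from 4.88 through 5.85 to 6.19 (difference 0.73, adjusted p = 0.32), and Acot2 from 5.66 through 5.85 to 6.10 (0.33, adjusted p = 0.289). Acot4 ranged from 5.00 through 5.49 to 5.85 (0.34, adjusted p = 0.392), and Acot12 from 8.06 through 8.24 to 8.47 (0.18, adjusted p = 0.518). In each of these genes the group overlapped the controls. The shared probe set ranged from 6.25 through 9.61 to 11.04 and differed by 2.09 (SE 0.62, adjusted p = 0.164), where 0.0148% of probe sets were called higher.

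Replicates 5 and 6, the arrays that stood apart, lay lowest of the group for Cyp4a14, the shared probe set, Acot1, Acot2, Acot3 and Acot4. Their Cyp4a14 levels were 4.08 and 4.54, and neither mouse had a member above all controls, while 2 members of replicate 5 lay below all controls. The other 4 mice of the group had 4 to 6 of the 6 members above all controls. Of all genes, 16.3% were above all controls in replicate 5 and 17.4% were in replicate 6, against 15.9% to 18.2% among the remaining 4 mice, so a count of 0 of 6 is near that background. Without replicates 5 and 6, 2 of 6 members were called against control, Cyp4a14 at 2.24 (SE 0.62, adjusted p = 0.0462) and Acot1 at 0.88 (SE 0.19, adjusted p = 0.0062), and 3.24% of all genes were called. The shared probe set then differed by 3.18 (adjusted p = 0.000496). These 2 arrays were picked from the same data because they lay among the controls. Leaving them out therefore favours a larger difference from control, and values without them, here and below, are a description and no independent test. What set these 2 livers apart was not tested.

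**Figure D3:**
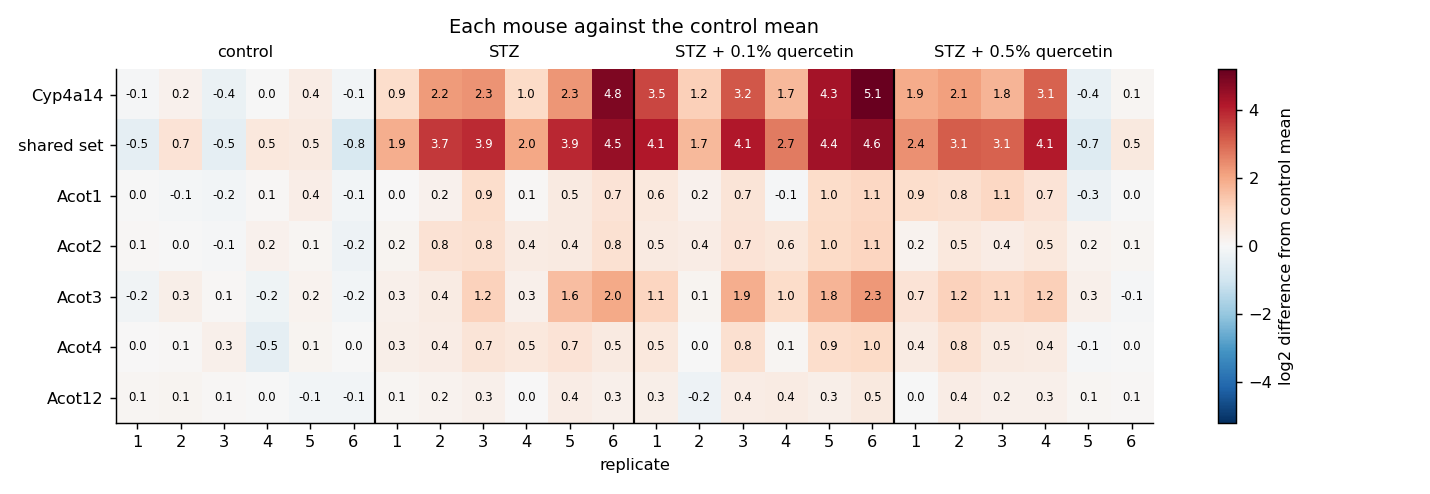
Each column is 1 mouse in its group and each row a gene or the probe set listed for Cyp4a31 and Cyp4a10 ("shared set"), with colour and printed number giving the log2 difference from the control mean. Most mice that received streptozotocin lie above the control mean in most rows, and 0.5% quercetin replicates 5 and 6 had 0 of 6 members above all controls, where 16.3% and 17.4% of all genes were.

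Quercetin groups were also compared with STZ mice on the plain diet and with each other, which shows whether the flavonol in the diet went with a different level of the members. At 0.1% quercetin, all 6 member means were above those of STZ mice and 0 of 6 members were called, with 0% of all genes called. At an unadjusted p under 0.05 there were 0 of 6 members and 5.24% of all genes, so the members' count is near that background. Cyp4a14 differed by 0.91 (95% interval -0.35 to 2.18). At 0.5% quercetin, 5 of 6 means were below those of STZ mice and 0 of 6 were called, with 0% of all genes called. At an unadjusted p under 0.05 there were 0 of 6 members and 7.51% of all genes, again near the background. There Cyp4a14 differed by -0.83 (95% interval -2.10 to 0.43) and by -0.04 without replicates 5 and 6. These intervals do not show that the diets act alike.

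Between the doses, all 6 means were lower at 0.5% than at 0.1% quercetin, and 0 of 6 were called, with 0% of all genes called. Cyp4a14 differed by -1.75 (unadjusted p = 0.00872, limma adjusted p = 0.471) and Acot2 by -0.39 (unadjusted p = 0.00598, adjusted p = 0.456). These were the 2 members at an unadjusted p under 0.05, where 1094 (8.34%) of all genes were as well. Without replicates 5 and 6 these differences were -0.96 and -0.30, and that of Acot1 turned from -0.03 to 0.31. The order of the 4 group means of Cyp4a14 was control, 0.5% quercetin, STZ and 0.1% quercetin, at 4.45 ± 0.26, 5.89 ± 1.31, 6.72 ± 1.42 and 7.64 ± 1.50 (SD, n = 6). No step between neighbours in that order was called.

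Within the groups given streptozotocin, mice differed widely in Cyp4a14, and most other members varied with it. After each group's mean was subtracted, Cyp4a14 correlated over 24 mice with Acot3 at r = 0.86 (permutation p = 2e-05, adjusted p = 6e-05 over 6 relations; rho = 0.81, adjusted p = 0.00012), with Acot1 at r = 0.80 (adjusted p = 0.00032; rho = 0.86, adjusted p = 9e-05) and with Acot2 at r = 0.75 (adjusted p = 0.00057; rho = 0.73, adjusted p = 0.00051). With Acot4 it was r = 0.66 (adjusted p = 0.0019; rho = 0.62, adjusted p = 0.0054). Acot12 followed least, at r = 0.52 (adjusted p = 0.023) and rho = 0.37 (adjusted p = 0.099). The shared probe set had r = 0.88 (permutation p = 1e-05, the smallest these permutations can give). Without the 2 mice farthest from the median of Cyp4a14, r was 0.81 for Acot3, 0.84 for Acot1, 0.72 for Acot2, 0.72 for Acot4 and 0.44 for Acot12. Without 0.5% quercetin replicates 5 and 6, r was 0.85 for Acot3, 0.73 for Acot1, 0.73 for Acot2, 0.55 for Acot4 and 0.49 for Acot12.

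These relations share the arrays whose Gapdh difference moved with the members, and near copies may share signal. Within groups, r of Cyp4a14 with Acot3 was 0.53 for the control mice and 0.85 for the STZ mice, and it was 0.89 with 0.1% and 0.90 with 0.5% quercetin (n = 6 each). With Acot4 it was -0.06 in controls and 0.17 in STZ mice, but 0.95 and 0.83 at the 2 doses, so the pooled value rests on the quercetin groups. The members' relation to clock phase was looked at through Dbp and Arntl, whose transcripts cycle over the day, because the labels give no hour of death. None of 12 relations passed adjustment, and the closest was Acot3 with Arntl at r = -0.59 (permutation p = 0.011, adjusted p = 0.13).

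**Figure D4:**
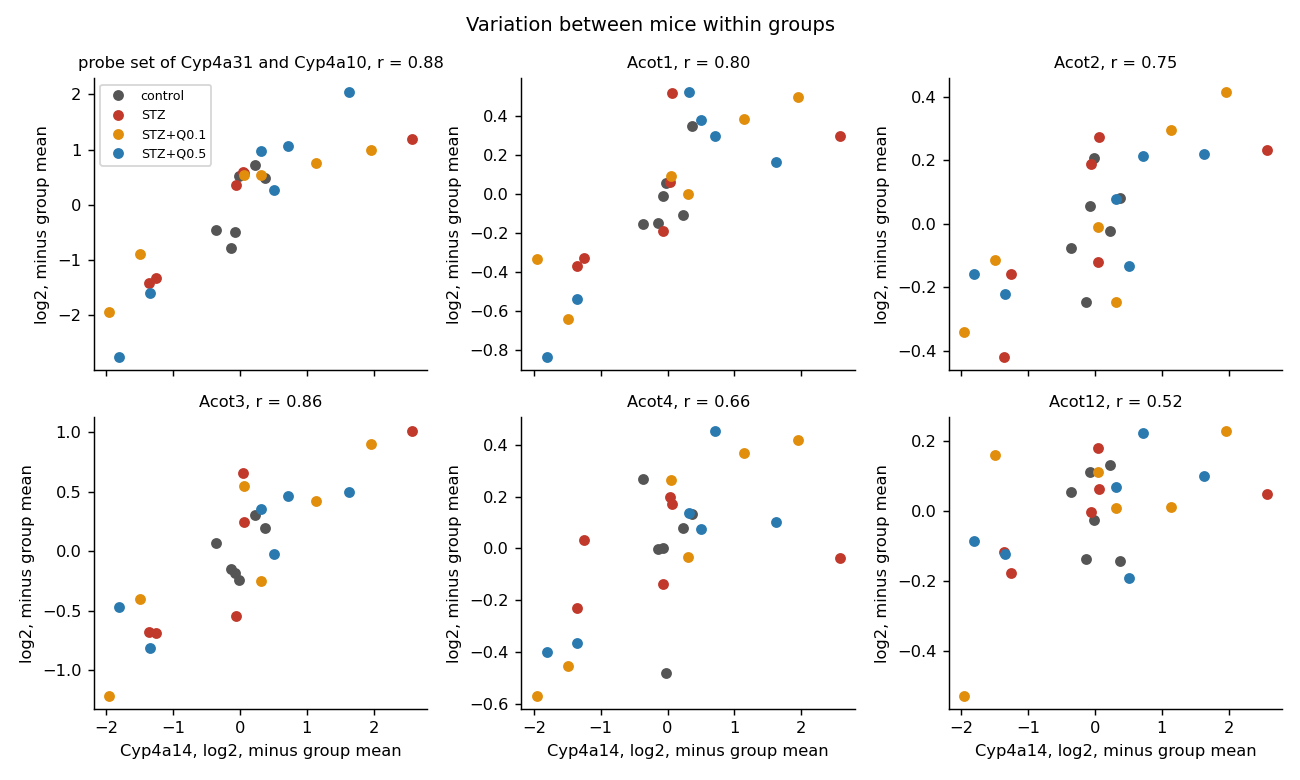
Each point is 1 of 24 mice, with the Cyp4a14 level on the horizontal axis and that of another gene or the shared probe set on the vertical axis, both as log2 minus the mean of the mouse's group. The points rise together for Acot3 (r = 0.86) and the shared probe set (r = 0.88) and are loosest for Acot12 (r = 0.52).

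Genes outside the members with the most similar pattern over all 24 arrays were found by Pearson's r among 13108 genes, as a description. For Cyp4a14 they were Slco1a4 (r = 0.947), an organic anion transporter, Grina (0.933), Gstt2 (0.933), a glutathione transferase, Cbr1 (0.931), a carbonyl reductase, and Sult1a1 (0.931), a sulfotransferase. For Acot1 they were Hsdl2 (0.857), Creg1 (0.833), Slc22a5 (0.795), the carnitine transporter, Cbr1 (0.793) and Ndfip2 (0.793). The arrays share group and array quality, so these values carry no test.

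Other genes of the same pathways mostly stayed below the threshold in STZ mice, as did most genes on the array. Of all genes, 3.72% were called in either direction in that comparison. Of 30 further genes responsive to PPARα that were tested, 1 was called higher, Slc22a5 at 0.51 (SE 0.15, adjusted p = 0.0472), and 0 lower. Their median difference was 0.08 against -0.02 for all genes. Of 10 genes for PPARα and its partners, 0 were called, and those with the smallest p were Ppargc1a at 0.27 (adjusted p = 0.198) and Med1 at 0.49 (adjusted p = 0.259).

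Few genes of the related enzyme families were called, where 3.72% of all genes were called, so these counts do not set the families apart. Of 9 other acyl-CoA thioesterases 0 were called, with Them5 at 0.19 (adjusted p = 0.285) and Baat, the bile acid conjugating enzyme, at 0.15 (adjusted p = 0.415). Of 9 other Cyp4 cytochromes 0 were called higher and 1 lower, Cyp4v3, which fell by 0.38 (SE 0.11, adjusted p = 0.0444). Of 13 acyl-CoA synthetases, which make the substrate of the thioesterases, 0 were called, with Slc27a5 at 0.27 (adjusted p = 0.121) and Acsm2 at -0.38 (adjusted p = 0.201). Of 11 genes for the oxidation that follows ω-hydroxylation 1 was called lower, Amacr, which fell by 0.25 (SE 0.07, adjusted p = 0.0314). Of 16 core clock genes 0 were called, with Cry1 at 0.43 (adjusted p = 0.152) and Dbp at -0.74 (adjusted p = 0.502).

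At 0.1% quercetin against control, 5.57% of all genes were called in either direction. Slc22a5 was again the 1 of 30 PPARα-responsive genes called, with a rise of 0.69 (SE 0.15, adjusted p = 0.00547). Aldh3a2, which oxidises fatty aldehydes, rose by 0.48 (adjusted p = 0.0303, 1 of 11), and Pparg by 0.37 (adjusted p = 0.0357, 1 of 10). Of the 9 other Cyp4 genes 3 fell, Cyp4a12a by 0.95 (adjusted p = 0.029), Cyp4f14 by 0.46 (adjusted p = 0.0193) and Cyp4v3 by 0.37 (adjusted p = 0.0396). Cyp4a14 was thus higher and Cyp4a12a lower than in the same controls. Acsm2 fell by 0.58 (adjusted p = 0.0243, 1 of 13), and among clock genes Ciart rose by 0.90 (adjusted p = 0.0287) and Nfil3 fell by 0.90 (adjusted p = 0.0113). In the other 4 comparisons none of these list genes was called.

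**Figure D5:**
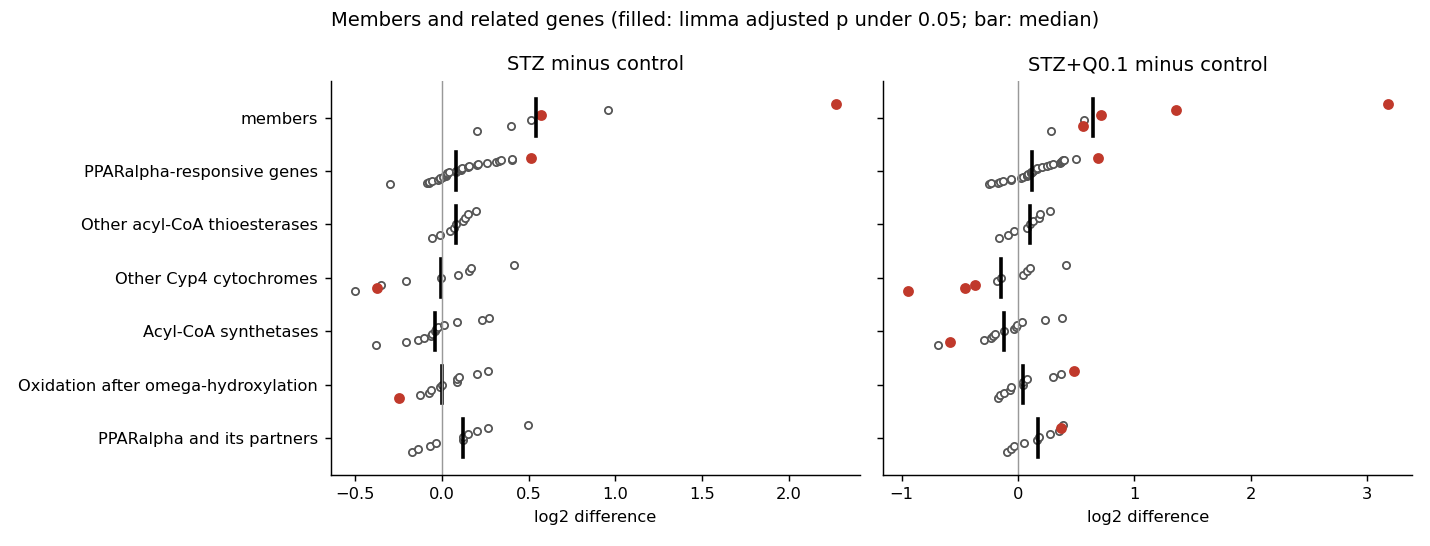
The horizontal axes give the log2 difference of every tested gene of the members and of 6 related lists, for STZ (left) and 0.1% quercetin (right) against control, with filled points for a limma adjusted p under 0.05 and a bar for each list's median. The members' median lies at 0.54 and 0.64, and that of the PPARα-responsive genes at 0.08 and 0.12.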

How the data were processed

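Biotin-labelled cRNA from liver RNA was hybridised, per the labels' protocols, and the deposited values are linear probe set intensities of 45101 probe sets (64 of them controls). How probe sets were summarised and scaled before the authors deposited these intensities is not given in the sources used here. The intensities were quantile normalized over the 24 arrays and converted to log2(value + 16). A gene was represented by its single-symbol probe set with the highest mean (34958 probe sets had 1 symbol, 932 several, 9211 none listed). Genes under the 40th percentile of probe set means were left out.

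Groups were compared in 1 fit with 4 group means (limma 3.58.1, R 4.3.3), two-sided. The design named all members and their probe sets, list genes past the threshold up to 6 per list (otherwise the 2 with the smallest p), and the 5 genes most like Cyp4a14 and Acot1. Marker genes named beyond this are those called against control, and those named beside Lyve1 and Cela1 were chosen after their values were seen. The members and lists were chosen with earlier results of these data known. Relations among mice used 100000 permutations within groups, and array quality used exact permutation tests. The fit was tested on simulated data. Motifs, and the relation of members to array quality, were added after the data were seen.

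Scaling, pseudocount, filter, probe set choice, spread prior, array weights, samples, a Gapdh term, a replicate block and left-out arrays were varied. Each array is 1 mouse. Cages held several mice and are not tied to arrays, so a cage effect cannot be told apart, and tests treat mice as independent. The number of arrays limits the precision.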

Additional observations from a re-analysis of the deposited data

Results flagged for a closer look

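Among 28 groups of 6 mice examined for a value far from the rest (7 readouts in 4 groups), 3 held one, and chance alone marks about 1 group in 20. Cyp4a14 in STZ replicate 6 was 9.30, while the other 5 STZ mice lay between 5.36 and 6.79. Without that mouse the difference from control was 1.75 and lost its call. Acot4 in control replicate 4 was 4.58, below the other controls at 5.05 to 5.33. Acot12 at 0.1% quercetin was 7.83 in replicate 2, below the other mice of that group at 8.37 to 8.59, and without this mouse Acot12 was called against control (0.39, adjusted p = 0.00716). No cause was tested for these values.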

How the results depend on the processing

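The count of members called in STZ against control, 2 in the report, was 1 on the values as deposited, 1 with a pseudocount of 64, 1 without the filter, 1 with a replicate block, 4 with array weights, 4 with only the 2 groups compared and 0 with the Gapdh term. It ranged from 1 to 3 when 1 array was left out. At 0.1% quercetin against control the count of 4 became 0 with the Gapdh term, 3 on the values as deposited, with a pseudocount of 1, with no filter, with only the 2 groups compared and with the replicate block, and 5 with array weights and without 0.5% quercetin replicates 5 and 6. It was 3 to 5 when 1 array was left out, and at 0.5% quercetin the count of 0 became 2 without replicates 5 and 6. Replicate numbers did not pair the mice (r of deviations -0.144 to 0.322 over 36 same-numbered pairs, 5 over 0.1). With the replicate block, Cyp4a14 in STZ against control had an adjusted p of 0.0593 and Acot4 at 0.1% quercetin one of 0.0503. Differences that were not called turned sign as follows. Acot1 between the doses became 0.035 with array weights, 0.13 with the Gapdh term and 0.31 without replicates 5 and 6, and spanned -0.16 to 0.13 with 1 array left out. In STZ against control Acot1 became -0.070 with the Gapdh term. At 0.5% quercetin against STZ, the Gapdh term gave 0.10 for Acot3 and 0.053 for Acot12. Leaving out replicates 5 and 6 gave 0.10 for Acot3, 0.019 for Acot4 and 0.023 for Acot12. With 1 array left out, Acot12 spanned -0.073 to 0.0097 there, and Acot4 at 0.1% quercetin against STZ spanned -0.036 to 0.16. The cause of these changes was not tested. Over all genes, STZ against control gave 488 calls, and 161 on the values as deposited. At 0.5% quercetin against control there were 17, and 8 as deposited, 30 with trimmed means and 686 with arrays scaled to the same median, where the median of all genes was -0.09. Dim probe sets such as 1422996_at limit what could be seen.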
